A study of Mus musculus with 2 samples.

Results

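The nuclear genes for the subunits of respiratory complexes II, III and IV, for the mobile carrier cytochrome c, and for ATP synthase (complex V) were examined in mouse heart. They were chosen by gene symbol, with earlier results of these data known: 30 symbols were listed by name, and 17 more start with Atp5 followed by a letter. All 47 symbols were found among the 22882 symbols of the files, none of them on several rows. All 47 also lay among the 10489 genes kept for comparison, for which both values exceed 0 and the higher of them is at least 1 FPKM. FPKM is a fragment count divided by transcript length and by a measure of library size. It is meant to let levels of different genes be set side by side. Which measure of library size was used is not given in the sources used here.

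Whole hearts of C57BL6/J mice aged 23 days were compared, from animals of mixed sex and without treatment. The control group carried the floxed Med1 allele on both chromosomes (Med1fl/fl). The csMed1-/- group carried the same floxed allele together with a Cre recombinase driven by the α-MyHC promoter, which removes Med1, a subunit of the Mediator complex of transcription, from cardiomyocytes from the late embryonic period on. Each genotype is represented by 1 library made from the pooled RNA of 5 mice, so there are no replicates, no test between the genotypes was possible, and each difference given here is a difference between 2 libraries. Other cells of the heart keep Med1 in this model.

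Oxidative phosphorylation takes place in the inner mitochondrial membrane. Complex II oxidises succinate and complex III passes the electrons on to cytochrome c, a small soluble carrier. Complex IV, cytochrome c oxidase, hands them to oxygen, and ATP synthase uses the proton gradient built up on the way to make ATP. Complex II is encoded wholly in the nucleus, whereas complexes III, IV and V combine nuclear subunits with a few made from mitochondrial DNA. Heart muscle draws most of its ATP from this system, and several complex IV subunits have a form specific to heart and skeletal muscle.

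Med1 was at 3.38 FPKM in Med1fl/fl and at 0.412 FPKM in csMed1-/- heart, 0.122 of the control level. The sum of all FPKM values was 780366 for Med1fl/fl and 716365 for csMed1-/- heart. The read counts behind these values were not used here, so the precision of a single value is unknown. Of 15 cardiomyocyte markers, 13 were above 0 in both libraries and summed to 73420 FPKM in Med1fl/fl and 35133 FPKM in csMed1-/- heart. Their median log2 ratio of csMed1-/- to control FPKM was -1.03, from -2.74 for Tnni3 (cardiac troponin I) to 0.56 for Actn2 (α-actinin of the Z-disc). The remaining markers, Actc1 (cardiac actin) and a row shared by Myh6 and Myh7 (the cardiac myosin heavy chains), were listed at 0 in control, against 9189 and 647 FPKM in csMed1-/- heart. Both are transcripts of every cardiomyocyte, so an exact 0 can be a failed estimate, which was not tested, and no fold was computed for them. The 9 fibroblast markers summed to 545 FPKM in Med1fl/fl and to 1206 FPKM in csMed1-/- heart, but only 5 of them were higher and 4 were lower. In pooled tissue RNA, fewer cardiomyocytes and less RNA per cardiomyocyte cannot be told apart.

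On the deposited FPKM scale, 44 of the 47 genes were lower in csMed1-/- than in Med1fl/fl heart, and 19 of them (40.4%) were lower by more than 2-fold, the size the study counts. Over all 10489 genes kept, 18.0% were lower by more than 2-fold. None of the 47 genes was higher by more than 2-fold, against 13.6% of all genes kept. The median log2 ratio of the 47 genes was -0.85, and that of all genes kept was -0.07, with quartiles of -0.72 and 0.55. Of the 47 genes, 28 lay under the first quartile of all genes and 4 above their median. The subunit genes are among the most abundant in heart, and 42 of them reached a mean of 100 FPKM over both libraries. Of those 42, 16 were lower by more than 2-fold, whereas 17.2% of the 1020 genes of that abundance were.

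The 47 genes together took 14.9% of the summed FPKM of the control library and 9.58% of that of the csMed1-/- library, as their own sum went from 116266 to 68628 FPKM. This direction depends on the scale: with ratios centred on the cardiomyocyte markers, which themselves were lower, 19 of the 47 genes were lower, 0 by more than 2-fold, and 3 were higher by more than 2-fold. Relative to the median of the 13 markers kept, complex II and cytochrome c were still below 0 on the log2 scale, at -0.60 and -0.50. The medians of complexes III, IV and V turned positive, at 0.10, 0.54 and 0.15. The markers themselves spread widely before centring, with quartiles of -1.46 and -0.53. The values of 0.10 and 0.15 are small beside that spread.

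**Figure D1:**
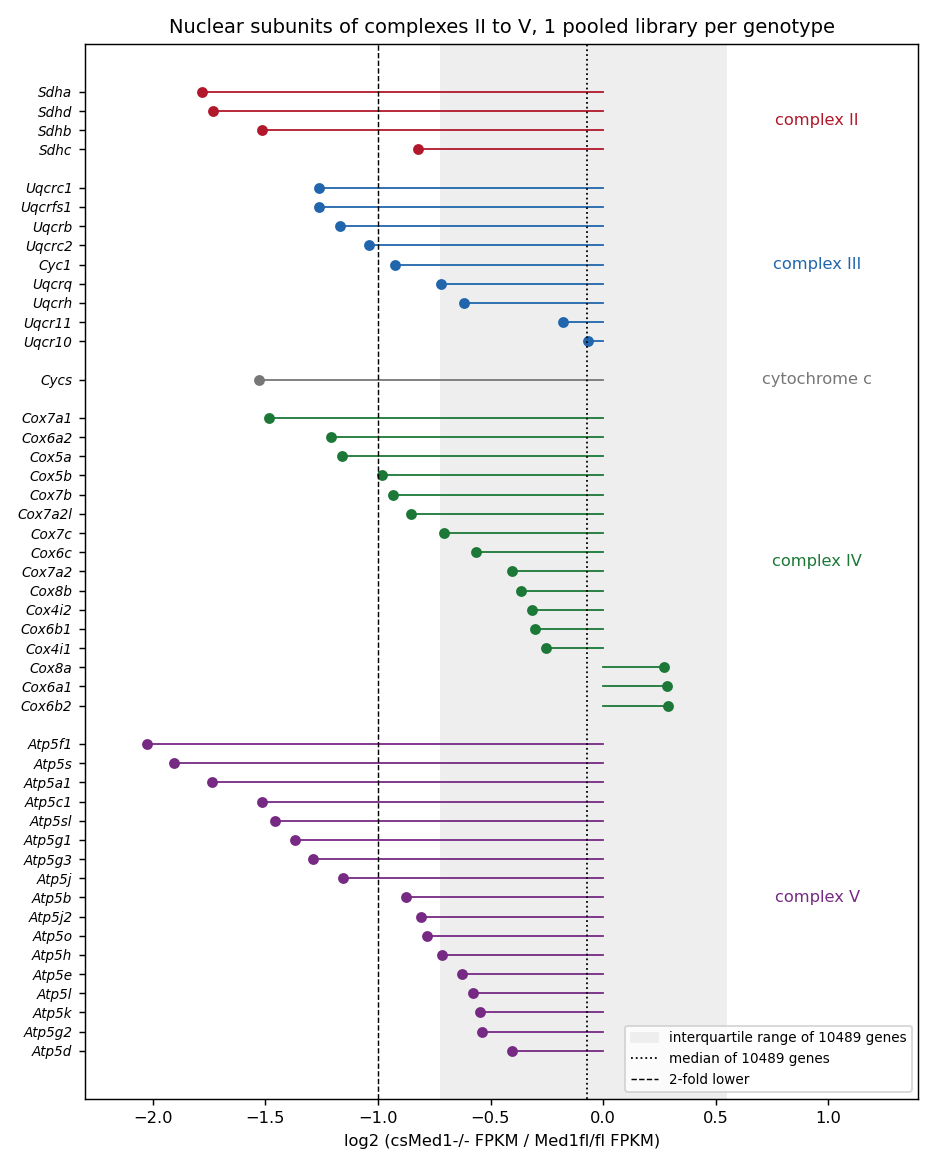
Log2 ratio of csMed1-/- to Med1fl/fl FPKM for each of the 47 genes, grouped by complex, with 1 pooled library per genotype; the grey band is the interquartile range of all 10489 genes kept, the dotted line their median and the dashed line a 2-fold lower level. Complexes II and V reach furthest to the left and only 3 complex IV genes lie to the right of 0, although with ratios centred on cardiomyocyte markers the medians of complexes III, IV and V lie above 0.

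Complex II, or succinate dehydrogenase, had the lowest median, -1.62, and 3 of its 4 genes were lower by more than 2-fold. The share over all genes kept was 18.0%. Sdha encodes the flavoprotein that binds succinate and lies on chromosome 13, from 74322254 to 74350280 on the minus strand (GRCm38, as all positions below). It was at 463 FPKM in Med1fl/fl and 135 FPKM in csMed1-/- heart, a log2 ratio of -1.78. Sdhb, the iron-sulfur subunit, was at 1427 FPKM and 499 FPKM, a log2 ratio of -1.52. The catalytic subunits were thus at 0.291 and 0.350 of their control levels.

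The membrane anchor of complex II, which holds the quinone site, is made from Sdhc and Sdhd. Sdhd was at 708 FPKM in Med1fl/fl and 213 FPKM in csMed1-/- heart (log2 ratio -1.73). Sdhc was at 1024 FPKM and 580 FPKM (log2 ratio -0.82), and was the only complex II gene within 2-fold of control in these libraries. By the paper's qPCR, at an unstated age, Sdhc was lower by more than 2-fold, about as much as Sdhb. The 2 assays thus differ for Sdhc, but not for Sdhc alone. For Sdha, Sdhb and Sdhd too, the paper's qPCR ratios were lower than its RNA-Seq ratios. The complex holds 1 copy of each protein, and in these libraries the transcript levels were less even in csMed1-/- heart. The highest of the 4 levels was 3.08 times the lowest in control and 4.31 times in csMed1-/- heart. Sdhb was the highest in control and Sdhc in csMed1-/- heart.

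All 9 complex III genes were lower in csMed1-/- heart on the deposited scale, with a median log2 ratio of -0.92. Of these, 4 were lower by more than 2-fold, against 18.0% of all genes kept. The genes of the core and catalytic proteins differed more than those of most small accessory proteins, with medians of -1.15 over 4 genes and -0.62 over 5. Among the core proteins, Uqcrc1 was at 2177 FPKM in Med1fl/fl and 908 FPKM in csMed1-/- heart (log2 ratio -1.26). Its partner Uqcrc2 was at 651 and 316 FPKM (log2 ratio -1.04), just past 2-fold. The Rieske iron-sulfur protein is encoded by Uqcrfs1, which was at 883 and 368 FPKM (log2 ratio -1.26). Cyc1, cytochrome c1, was at 2280 and 1202 FPKM (log2 ratio -0.92), just short of 2-fold.

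The 5 accessory genes of complex III spread widely. Uqcrb was at 508 FPKM in Med1fl/fl and 226 FPKM in csMed1-/- heart (log2 ratio -1.17), the only accessory gene past 2-fold. Uqcrq was at 4150 and 2521 FPKM (log2 ratio -0.72), and Uqcrh, the hinge protein that helps cytochrome c dock, was at 1678 and 1092 FPKM (log2 ratio -0.62). The smallest proteins of the complex were nearest to control: Uqcr11 was at 4194 and 3707 FPKM (log2 ratio -0.18) and Uqcr10 at 2561 and 2444 FPKM (log2 ratio -0.07). Uqcr10 was thus at 0.954 of its control level while Uqcrc1 was at 0.417. The ratio of the highest to the lowest complex III level went from 8.25 in control to 16.4 in csMed1-/- heart, in both cases between Uqcr11 and Uqcrb.

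Cycs, somatic cytochrome c, was at 109 FPKM in Med1fl/fl and 37.7 FPKM in csMed1-/- heart, a log2 ratio of -1.53. The testis form of cytochrome c, Cyct, did not pass the filter on low values.

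**Figure D2:**
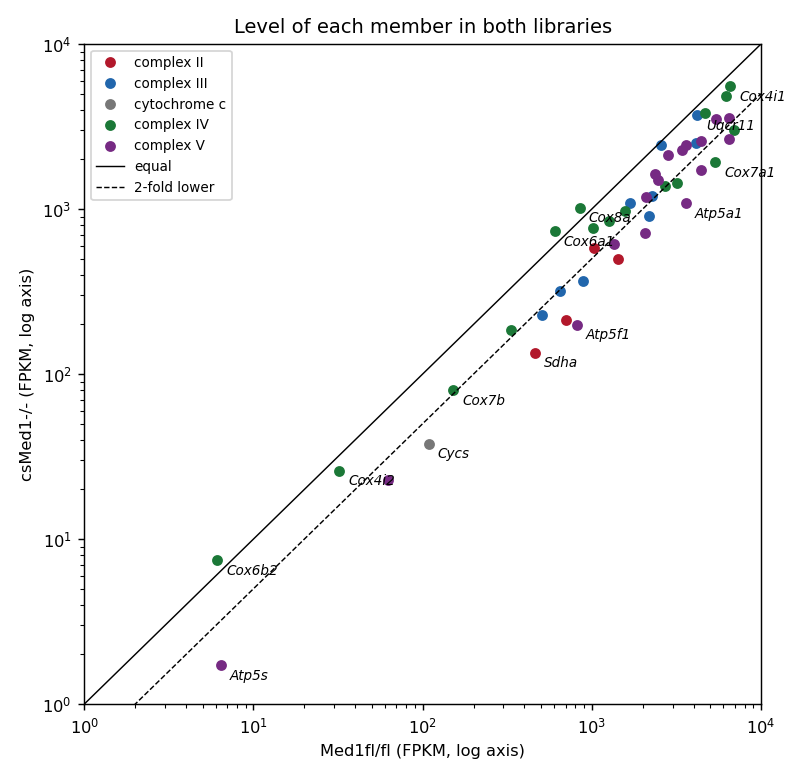
Level of each of the 47 genes in Med1fl/fl (x axis) and csMed1-/- heart (y axis), in FPKM on log axes, 1 point per gene and 1 library per axis; the solid line marks equal levels and the dashed line a 2-fold lower level. Most genes lie between the lines or below the dashed one at any level from about 100 FPKM up, and Cox6a1 and Cox8a lie above the solid line.

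Complex IV stood nearest to control, with a median log2 ratio of -0.49 over 16 genes, of which 13 were lower and 3 higher on the deposited scale and 3 were lower by more than 2-fold. That share, 18.8%, is close to the 18.0% of all genes kept. The 10 ubiquitous subunit genes summed to 22643 FPKM in Med1fl/fl and 16565 FPKM in csMed1-/- heart. The 3 isoforms of heart and skeletal muscle, Cox6a2, Cox7a1 and Cox8b, summed to 18562 and 9776 FPKM. Their median was -1.21, against -0.49 for the ubiquitous genes.

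Of the ubiquitous genes, Cox5a, a subunit on the matrix side, was at 3202 FPKM in Med1fl/fl and 1432 FPKM in csMed1-/- heart (log2 ratio -1.16), the only one past 2-fold. Cox5b, which binds zinc, was at 2708 and 1369 FPKM (log2 ratio -0.98), although the paper's qPCR put it lower by more than 2-fold. Cox7b, on the X chromosome, was at 152 and 79.5 FPKM (log2 ratio -0.93). These 3 had the lowest log2 ratios of the 10 ubiquitous genes.

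Cox7c was at 1578 FPKM in Med1fl/fl and 967 FPKM in csMed1-/- heart (log2 ratio -0.71), and Cox6c at 1256 and 848 FPKM (log2 ratio -0.57). Cox6b1, which lies at the contact between the monomers of the enzyme, was at 4694 and 3810 FPKM (log2 ratio -0.30). Cox4i1, the largest nuclear subunit, was at 6595 and 5540 FPKM (log2 ratio -0.25). Cox4i1 moved from the second-highest level of the 47 genes in control to the highest in csMed1-/- heart, as Cox6a2, the highest in control, came down to rank 7.

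The remaining complex IV genes stood at lower levels. Cox7a2l, also known as Scaf1, has been described as a factor for supercomplexes of complexes III and IV. Whether it has that function in mice of this strain was not tested. It was at 333 FPKM in Med1fl/fl and 185 FPKM in csMed1-/- heart (log2 ratio -0.85). Cox4i2, the lung isoform, was at 32.2 and 25.9 FPKM (log2 ratio -0.32), and Cox6b2, the testis isoform, at 6.09 and 7.45 FPKM (log2 ratio 0.29). Cox4i2 made up 0.487% of the COX4 level in control and 0.465% in csMed1-/- heart, and Cox6b2 0.130% and 0.195% of the COX6B level, so that both stayed minor forms.

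Subunits VIa, VIIa and VIII are each made from a muscle gene or a gene used in most tissues, and in all 3 the share of the ubiquitous form was larger in csMed1-/- heart. The muscle gene Cox6a2 (chromosome 7, 128205435 to 128206387, minus strand) was at 6967 FPKM in Med1fl/fl and 3016 FPKM in csMed1-/- heart, a log2 ratio of -1.21. Its ubiquitous counterpart Cox6a1 (chromosome 5, 115345642 to 115348981, minus strand) was at 602 and 734 FPKM, a log2 ratio of 0.29. Cox6a1 thus made up 7.96% of the summed COX6A level in control and 19.6% in csMed1-/- heart. The paper's qPCR put a gene given as Cox6a lower by more than 2-fold. The paper does not name the isoform, and lists Cox6a as not significant by RNA-Seq. The log2 ratios of the pair differed by 1.49, a 2.81-fold shift of one form against the other.

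For subunit VIIa, Cox7a1 (chromosome 7, 30184144 to 30186078, plus strand) was at 5377 FPKM in Med1fl/fl and 1925 FPKM in csMed1-/- heart, a log2 ratio of -1.48 and the lowest in complex IV. Cox7a2 (chromosome 9, 79755361 to 79759878, minus strand) was at 1011 and 764 FPKM, a log2 ratio of -0.40. The share of Cox7a2 in the pair was 15.8% in control and 28.4% in csMed1-/- heart, a shift of 2.11-fold. Here the ubiquitous gene was itself lower, and the summed COX7A level was at 0.421 of control.

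For subunit VIII the shift was smaller. Cox8b (chromosome 7, 140898945 to 140900446, minus strand) was at 6219 FPKM in Med1fl/fl and 4835 FPKM in csMed1-/- heart, a log2 ratio of -0.36. Cox8a (chromosome 19, 7215153 to 7217616, minus strand) was at 846 and 1021 FPKM, a log2 ratio of 0.27. Cox8a made up 12.0% and 17.4% of the COX8 level, a shift of 1.55-fold. The summed COX8 level was at 0.829 of control, whereas the summed COX6A level was at 0.495. In each pair the muscle form remained the larger in both libraries, and these shares do not change with the scaling of a library.

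**Figure D3:**
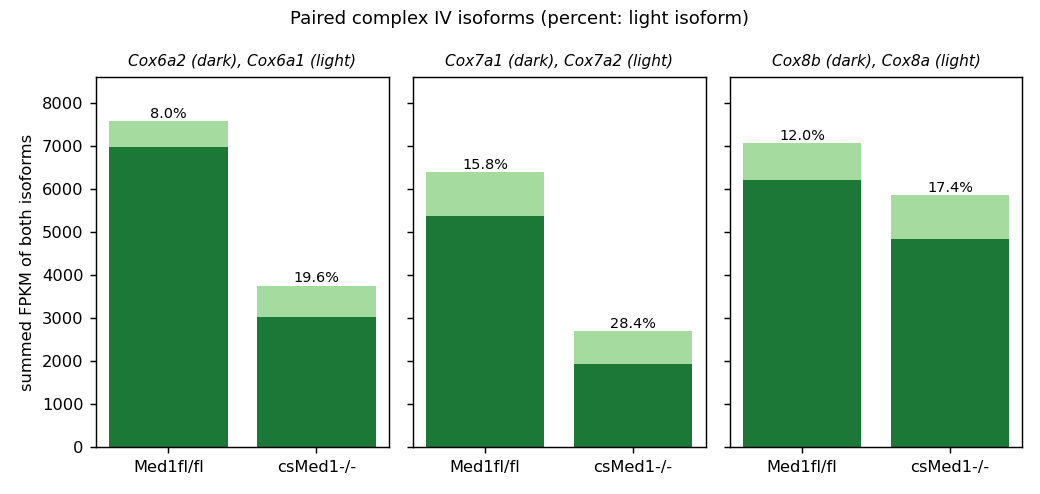
Summed FPKM of 3 pairs of complex IV isoforms in Med1fl/fl and csMed1-/- heart, 1 library each, with the muscle form dark, the ubiquitous form light and the percent of the ubiquitous form above each bar. The ubiquitous share is larger in csMed1-/- heart in each pair, at 19.6% against 7.96% for Cox6a1. Most or all of the loss in height is in the dark part in each pair.

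The start regions of 5 of these isoform genes are shown because the balance of each pair differed between the libraries, and Cox6a2 had no entry. They come from RefSeq (GRCm38.p6), read on the strand of the gene with annotated exons left off. Cox6a1 is at chr5:115348982-115349129 (minus strand), Cox7a1 at chr7:30183921-30184143 (plus), Cox7a2 at chr9:79759879-79760103 (minus), Cox8a at chr19:7217617-7217866 (minus) and Cox8b at chr7:140900447-140900696 (minus). Capitals mark matches, on either strand, to the NRF1 motif (GCGC, any base, then TGCGC) or to the SP1 motif (GGGCGG).
Cox6a1: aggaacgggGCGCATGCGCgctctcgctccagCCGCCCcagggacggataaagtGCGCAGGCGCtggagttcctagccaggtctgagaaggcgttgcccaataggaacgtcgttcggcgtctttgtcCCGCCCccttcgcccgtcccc
Cox7a1: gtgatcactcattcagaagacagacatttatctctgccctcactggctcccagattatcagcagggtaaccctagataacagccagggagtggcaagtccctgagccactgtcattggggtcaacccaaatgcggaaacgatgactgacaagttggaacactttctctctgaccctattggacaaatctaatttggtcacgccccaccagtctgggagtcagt
Cox7a2: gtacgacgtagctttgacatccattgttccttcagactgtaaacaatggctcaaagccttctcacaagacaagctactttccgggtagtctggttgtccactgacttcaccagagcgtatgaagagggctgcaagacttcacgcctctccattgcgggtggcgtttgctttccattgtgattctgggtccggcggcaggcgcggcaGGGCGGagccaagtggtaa
Cox8a: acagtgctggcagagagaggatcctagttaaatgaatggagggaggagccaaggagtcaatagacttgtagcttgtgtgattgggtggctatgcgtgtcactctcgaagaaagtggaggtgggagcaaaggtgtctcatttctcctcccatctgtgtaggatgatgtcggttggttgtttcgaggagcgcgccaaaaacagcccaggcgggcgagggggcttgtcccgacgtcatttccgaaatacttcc
Cox8b: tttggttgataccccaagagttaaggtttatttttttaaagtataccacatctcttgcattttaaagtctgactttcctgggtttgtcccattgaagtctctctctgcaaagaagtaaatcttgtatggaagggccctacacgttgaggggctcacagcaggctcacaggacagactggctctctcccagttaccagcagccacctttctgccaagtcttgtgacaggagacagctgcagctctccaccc
Cox6a1, the isoform with the largest shift against its partner, holds 2 NRF1 matches and 2 SP1 matches, and Cox7a2 holds a single SP1 match. The stretches shown of Cox7a1, Cox8a and Cox8b hold neither motif, and the full windows of Cox6a1 and Cox8a also hold the ETS motif (CCGGAAG), at or after the end of the stretch. The 300-base windows of the ubiquitous genes were richer in the dinucleotide CG, with 32 in Cox6a1, 20 in Cox7a2 and 19 in Cox8a, against 7 in Cox7a1 and 2 in Cox8b.

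Start regions of 300 bases, from 250 before to 50 after the RefSeq start, were used for 37 of the 47 genes and for 27025 genes in all. The NRF1 motif was in 10 of the 37 (27.0%) and in 5.19% of all genes: Sdha, Sdhd, Uqcrc1, Cox6a1, Atp5c1, Atp5g2, Atp5g3, Atp5h, Atp5k and Atp5o. The ETS motif was in 12 (32.4%) and in 9.93% of all genes. The ERR motif (AAGGTCA), which estrogen-related receptors bind, was in 5 (13.5%), namely Sdhd, Atp5e, Atp5g3, Atp5k and Atp5l, and in 5.38% of all genes. The YY1 motif (AAGATGG) was in 5 (13.5%) and in 7.28% of all genes.

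Other motifs were no more common than elsewhere. SP1 was in 14 (37.8%) and in 38.2% of all genes, the box of letters TATAAA in Cox8b and Atp5l only (5.41%, against 15.7%), and MEF2 (CTA, any 4 bases, then TAG) in Cox5b only (2.70%, against 4.23%). Genes with the NRF1 motif had a median log2 ratio of -1.02 and the others -0.85. With the ETS motif the median was -0.60 and without it -0.98, and with the ERR motif it was -0.63 and without it -0.86. A match of letters is a description of the window and not a site shown to be bound.

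All 17 Atp5 genes were lower in csMed1-/- heart on the deposited scale, with a median log2 ratio of -0.87. Of them, 8 (47.1%) were lower by more than 2-fold, against 18.0% of all genes kept. The summed level of the 17 Atp5 genes went from 51877 to 27820 FPKM. Atp5l shares its row with the neighbouring gene Ube4a, and without that row the median of complex V was -1.01.

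The F1 head, which makes ATP, is built from 5 nuclear subunits. Atp5a1, the α subunit, was at 3605 FPKM in Med1fl/fl and 1082 FPKM in csMed1-/- heart (log2 ratio -1.74), while Atp5b, the catalytic β subunit, was at 6480 and 3538 FPKM (log2 ratio -0.87). The proteins alternate in equal number around the head, yet their transcripts were at 0.300 and 0.546 of control. Atp5c1, the γ subunit of the rotating shaft, was at 2056 and 719 FPKM (log2 ratio -1.52). The small shaft subunits differed less, with Atp5e (ε) at 5424 and 3513 FPKM (log2 ratio -0.63) and Atp5d (δ) at 2808 and 2122 FPKM (log2 ratio -0.40).

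The peripheral stalk holds the head still against the rotor. Atp5f1, its b subunit, was at 813 FPKM in Med1fl/fl and 200 FPKM in csMed1-/- heart, and its log2 ratio of -2.03 was the lowest of the 47 genes and the only one past 4-fold. Atp5f1 lies on chromosome 3 from 105942698 to 105960099, on the minus strand. Atp5j (F6) was at 1359 and 610 FPKM (log2 ratio -1.16). Atp5o (OSCP), which joins the stalk to the head, was at 4421 and 2571 FPKM (log2 ratio -0.78), and Atp5h (d) at 2474 and 1506 FPKM (log2 ratio -0.72). Of the stalk genes, then, 2 of 4 were past 2-fold, and Atp5f1 was the least abundant of the 4 in both libraries.

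The c subunit forms the rotor ring in the membrane, and its 3 genes encode the same mature protein behind different import sequences. Atp5g3 (chromosome 2, 73908447 to 73911326, minus strand) was at 6478 FPKM in Med1fl/fl and 2655 FPKM in csMed1-/- heart (log2 ratio -1.29). Atp5g1 (chromosome 11, 96068852 to 96075670, minus strand) was at 4445 and 1720 FPKM (log2 ratio -1.37), and Atp5g2 (chromosome 15, 102662864 to 102672352, minus strand) at 2357 and 1626 FPKM (log2 ratio -0.54). Atp5g1 and Atp5g3 had log2 ratios 0.08 apart, whereas those of Atp5g2 and Atp5g3 were 0.75 apart, a shift of 1.68-fold. Atp5g2 made up 17.7% of the c-subunit level in control and 27.1% in csMed1-/- heart, as Atp5g1 went from 33.5% to 28.7% and Atp5g3 from 48.8% to 44.2%. Together they were at 0.452 of control.

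The start region of Atp5g3, the most abundant c-subunit gene, is shown because it holds the ERR motif upstream of the start. It lies at chr2:73911327-73911576 on the minus strand (RefSeq, GRCm38.p6), and capitals mark the match, which is on the opposite strand to the gene.
Atp5g3: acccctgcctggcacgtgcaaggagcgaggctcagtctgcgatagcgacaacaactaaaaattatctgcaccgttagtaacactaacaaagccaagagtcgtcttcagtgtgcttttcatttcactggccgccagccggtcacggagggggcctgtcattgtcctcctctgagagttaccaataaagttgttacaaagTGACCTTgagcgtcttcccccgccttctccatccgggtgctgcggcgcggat
The windows of Atp5g1 and Atp5g2 did not hold that motif. Atp5g2 and Atp5g3 each held an NRF1 match nearer to the start, outside the stretch printed, and Atp5g1 held none of the motifs searched.

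The small membrane subunits around the ring were all within 2-fold of control. Atp5j2 (f) was at 2083 FPKM in Med1fl/fl and 1190 FPKM in csMed1-/- heart (log2 ratio -0.81). The row of Atp5l (g) was at 3408 and 2284 FPKM (log2 ratio -0.58), and Atp5k (e) was at 3597 and 2460 FPKM (log2 ratio -0.55). The e and g subunits bend the membrane where synthase dimers meet.

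The Atp5 prefix also takes in Atp5s and Atp5sl, which current naming lists as Dmac2l and Dmac2 and not as synthase subunits. Atp5sl was at 62.3 FPKM in Med1fl/fl and 22.7 FPKM in csMed1-/- heart (log2 ratio -1.46), and Atp5s at 6.42 and 1.72 FPKM (log2 ratio -1.90). Without them, 6 of 15 complex V genes were lower by more than 2-fold, against 18.0% of all genes kept, and the median was -0.81.

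Across the 47 genes, those with long coding sequences were lower by more than the short ones. Over all genes kept, 18.0% were lower by more than 2-fold. Of the 47 genes, 12 had over 600 coding bases, and 9 of those 12 were lower by more than 2-fold. The median log2 ratio of the 12 was -1.36. Of the 35 shorter genes 10 were lower by more than 2-fold, with a median of -0.71. Across these genes, which are not independent replicates, log2 ratio and log coding length had a Pearson's r of -0.55 and a Spearman's rho of -0.56 (n = 47), and -0.48 and -0.50 without Sdha and Atp5a1, the longest. Within complex III r was -0.79 (n = 9) and within complex V -0.53 (n = 17), but within complex IV it was -0.06 (n = 16).

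The order was not particular to these genes, as r was -0.35 over 36 nuclear genes of complex I. The correlation was much weaker over wider sets. There r was -0.05 over 9968 genes kept that have a coding length, and -0.03 over 942 other genes at a mean of 100 FPKM or more. Among those 942 genes the medians were 0.15 above and 0.13 at or under 600 coding bases. By count, however, the long ones were more often lower by more than 2-fold there too. This held for 122 of 585 genes over 600 coding bases and for 35 of 357 at or under. GC content of the transcript moved with the ratios too, at r = 0.52 over the 47 genes and 0.16 over all genes. The part of length, GC content and mapping in these differences was not tested. Many short subunit genes have processed pseudogenes of near-identical sequence, and how reads shared with them were counted is not given in the sources used here.

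**Figure D4:**
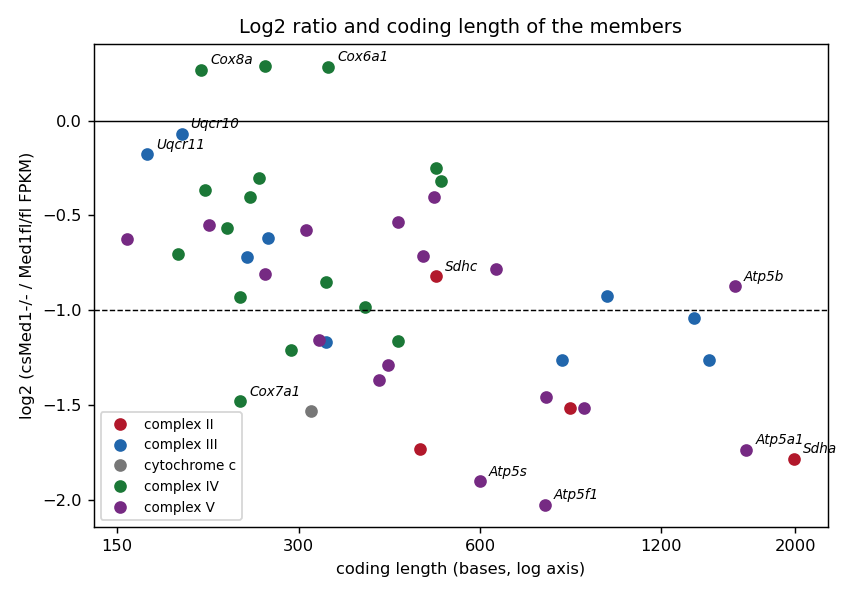
Log2 ratio of csMed1-/- to Med1fl/fl FPKM against coding length in bases (log axis) for the 47 genes, 1 point per gene, coloured by complex; the dashed line marks a 2-fold lower level. Genes over 600 coding bases lie mostly below the dashed line, with a median of -1.36, and Cox6a1 and Cox8a lie above 0.

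The proteins that build these complexes come from other genes, and 32 assembly factors of complexes II to V were listed. The 27 of them found in the files all passed the filter on low values, and the other 5 were not analysed here. On the deposited scale 23 were lower and 14 passed 2-fold in that direction. Over all 10489 genes kept, 18.0% were lower by more than 2-fold. The median log2 ratio of the 27 factors was -1.01, close to that of the cardiomyocyte markers. With ratios centred on those markers, the factors of complexes II, III, IV and V had medians of 0.24, -0.41, 0.08 and -0.01. For complex III, Lyrm7, a chaperone of the Rieske protein, was at 3.99 FPKM in Med1fl/fl and 0.520 FPKM in csMed1-/- heart (log2 ratio -2.94), next to -1.26 for Uqcrfs1 itself. Uqcc (-1.70), Ttc19 (-1.44) and Bcs1l (-1.35), which inserts the Rieske protein, were also past 2-fold, whereas AI462493 was at 0.24. Ttc19 was at only 2.88 FPKM in Med1fl/fl and 1.07 FPKM in csMed1-/- heart. With a pseudocount of 1, Ttc19 was at -0.91, within 2-fold, and Lyrm7 at -1.72.

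For complex IV, 7 of 14 factors were lower by more than 2-fold. Lrpprc, which stabilises mitochondrial mRNAs, was at 19.5 FPKM in Med1fl/fl and 2.72 FPKM in csMed1-/- heart (log2 ratio -2.84), and Taco1, a translational activator of the mitochondrial subunit COX1, at 33.8 and 11.3 FPKM (log2 ratio -1.58). The heme enzymes Cox10 and Cox15 had log2 ratios of -1.50 and -1.09, and the copper proteins Cox11 and Sco1 of -1.42 and -1.32. Cox11 was at only 5.31 and 1.99 FPKM, and Sco1 at 3.69 and 1.48 FPKM. With a pseudocount of 1, Cox15 was at -0.96 and Sco1 at -0.92, both within 2-fold, and Cox11 at -1.08. Cox16, on a row shared with Synj2bp, was at -1.11. Cox19, a factor for copper delivery, went the other way, from 57.9 to 251 FPKM (log2 ratio 2.11), the only factor higher by more than 2-fold.

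The chaperones of the F1 head differed: Atpaf1 was at 21.8 and 4.71 FPKM (log2 ratio -2.21), whereas Atpaf2, named here after its values were seen, was at 29.5 and 24.5 FPKM (log2 ratio -0.27). Tmem70, another assembly factor of the synthase, was at 17.8 and 5.10 FPKM (log2 ratio -1.81). Atpif1, the inhibitor of the synthase, was at 479 and 449 FPKM (log2 ratio -0.09), so that its level relative to each of the 5 F1 genes was higher in csMed1-/- heart. For complex II, Acn9 (Sdhaf3) was at 3.66 and 1.82 FPKM (log2 ratio -1.01) and Sdhaf1 at 45.8 and 50.9 FPKM (log2 ratio 0.15). With a pseudocount of 1, Acn9 was at -0.72.

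**Figure D5:**
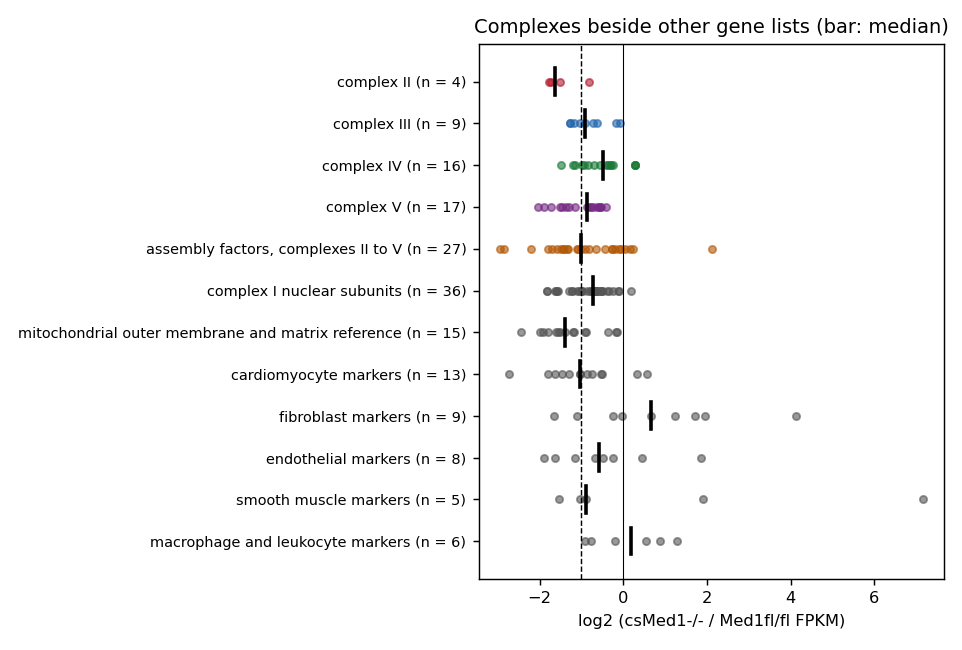
Log2 ratio of csMed1-/- to Med1fl/fl FPKM for the genes of each complex and of other lists, 1 point per gene kept, with the median as a bar and the dashed line at a 2-fold lower level. Complexes III to V have medians of -0.92, -0.49 and -0.87, above the -1.03 of the cardiomyocyte markers on which centring would place them above 0, and complex II has a median of -1.62.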

How the data were processed

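RNA of 5 hearts per genotype was pooled, enriched for mRNA and sequenced as directional libraries with reads of 50 bases. The authors aligned the reads with TopHat 2.0.8b to mm10 and used Cufflinks and Cuffdiff 2.1.1 to estimate the deposited FPKM values. The scaling of the libraries is not given in the sources used here.

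Rows sharing a symbol were summed, and plain ratios of csMed1-/- to Med1fl/fl FPKM were taken for genes with 2 values above 0 and a higher value of at least 1 FPKM. The spacing of low values gives a relative depth of 1.39 for csMed1-/- over Med1fl/fl, provided that only mapped fragments set the scale. With 1 library per genotype no test was made, and genes were counted past 2-fold. Every gene of the rule is named, as are the deleted gene, the lowest and highest gene of each other list, and assembly factors past 2-fold. The genes and lists were chosen with earlier results of these data known. Coding lengths and positions came from GENCODE M21 (GRCm38) and start regions from RefSeq (GRCm38.p6).

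The alternatives were pseudocounts of 0.1 and 1, other filters on low values, other scalings, thresholds of 1.5-fold and 4-fold, and the highest row in place of the sum. A background of genes at 100 FPKM or more and the omission of the row of Atp5l and Ube4a were added after seeing the data. The computation was tested on simulated data. Python 3.11.15, numpy 2.4.6, pandas 2.3.3 and matplotlib 3.10.9 were used.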

Additional observations from a re-analysis of the deposited data

How the results depend on the processing

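The count of 19 genes lower by more than 2-fold was 18 to 22 under other pseudocounts, filters and scalings, except with ratios centred on the cardiomyocyte markers (a shift of 1.03 on the log2 scale). That centring gave 0 genes lower and 3 higher by more than 2-fold, with 19 of 47 lower at all against 44 as deposited, and medians of -0.60 for complex II, 0.10 for complex III, 0.54 for complex IV and 0.15 for complex V, and -0.50 for Cycs. Over all genes it put 5.01% lower and 48.1% higher by more than 2-fold. It rests on the construction of the scale, and which scale fits these hearts was not tested. A threshold of 1.5-fold gave 32 genes lower, and one of 4-fold gave 1, Atp5f1. Over all genes kept, the shares at these thresholds were 29.7% and 5.14%. A scaling of a whole library cancels in an isoform difference, and the filters and the choice of row leave its value unchanged. Only the pseudocounts and the centring within abundance bins could move the isoform differences. Under these they kept their sign and stayed within 1.5-fold. The difference of Cox6b1 and Cox6b2 could not be taken with the filter of 10 FPKM. Apart from these genes, the median of the atrial markers went from 1.26 to -0.36 without a filter on low values, which adds a gene to the pair kept, and that of the macrophage and leukocyte markers from 0.18 to -0.48. A filter of 10 FPKM turned the median of the smooth muscle markers from -0.89 to 0.51. No paired analysis was possible because each genotype has 1 library. Among the assembly factors, a pseudocount of 1 brought Ttc19, Sco1, Cox15 and Acn9 within 2-fold. Read depth is unknown, so the error of genes at a few FPKM, such as Atp5s, Cox6b2 and some assembly factors, could not be given.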

Other observations

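Genes around the 47 subunits were lower too on the deposited scale. Of 36 nuclear genes of complex I, 35 were lower and 12 passed 2-fold in that direction, with a median log2 ratio of -0.72, from -1.83 for Ndufs1, which carries iron-sulfur clusters (107 FPKM in Med1fl/fl and 30.1 FPKM in csMed1-/- heart), to 0.18 for Ndufa7 (1918 and 2176 FPKM). All 15 reference genes of the mitochondrial outer membrane, import and matrix were lower, 10 by more than 2-fold, with a median of -1.38. Over all genes kept, 18.0% were lower by more than 2-fold. Cs, citrate synthase, was at 1031 and 190 FPKM (log2 ratio -2.44), and Tomm22, an import receptor, at 141 and 126 FPKM (log2 ratio -0.16). Complex II alone had a lower median than that reference list, and complexes III, IV and V had higher ones. With ratios centred on the cardiomyocyte markers the median of complex I was 0.31 and that of the reference list -0.35.

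Outside the symbols listed, Ndufa4, a complex IV subunit by current assignment, was at 2361 FPKM in Med1fl/fl and 1286 FPKM in csMed1-/- heart (log2 ratio -0.88). Usmg5 and 2010107E04Rik, small proteins of ATP synthase, had log2 ratios of -0.46 and -0.25. The 13 mitochondrially encoded subunits were not analysed here.

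Marker genes of other cells also differed between the libraries, and the medians of 3 short lists (atrial, smooth muscle, and macrophage and leukocyte markers) changed sign with the filter on low values. The 9 fibroblast markers had a median log2 ratio of 0.66, from -1.66 for Dpt to 4.13 for Postn. The 8 endothelial markers had a median of -0.58, from -1.90 for Tek to 1.85 for Vwf, and of 0.45 with ratios centred on the cardiomyocyte markers. Of 5 smooth muscle markers the median was -0.89, from -1.53 for Smtn to 7.17 for Cnn1. The 6 macrophage and leukocyte markers kept had a median of 0.18, from -0.91 for Emr1 to 1.29 for Cd14. The 3 skeletal muscle markers kept had a median of -3.47 (Tnni2 -4.29, Myh1 -3.10), but all were near the floor. Tnni2 was at 5.38 FPKM in Med1fl/fl and 0.276 FPKM in csMed1-/- heart, and Myh1 at 4.05 and 0.471 FPKM. With a pseudocount of 1 their median was -1.78. Of the 7 listed, those left out by the filter on low values did not all go the same way. The 4 erythroid genes kept had a median of 1.03 and summed to 15942 FPKM in Med1fl/fl and 24887 FPKM in csMed1-/- heart, from 0.44 for the row of Hba-a1 and Hba-a2 to 2.30 for Slc4a1. Of the atrial markers, Myl4 was at 2.89 and Myl7 at -0.36. The part of these cells in the levels of the 47 genes was not tested.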
